A study of Mus musculus with 18 samples.

Results

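The 10 genes described here are core genes of the Notch pathway and of secretory fate in the intestinal crypt. They are the receptors Notch1 and Notch2, the ligands Dll1, Dll4 and Jag1, the nuclear effector Rbpj, the targets Hes1 and Nrarp, and Hes6 and Atoh1 on the secretory side. They were chosen by gene name, and each matched 1 of the 55335 genes of the count table. All 10 passed the filter on low counts that left 21349 genes for testing.

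RNA-Seq had been performed on small intestinal crypts, the epithelial pockets that hold the stem and progenitor cells, from mice of 8 to 12 weeks whose copies of Prmt1, the gene of an arginine methyltransferase, carry LoxP sites (Prmt1 fl/fl). The KO mice also carried CreERT2, a tamoxifen-activated Cre recombinase, under the villin promoter, which is active in intestinal epithelium. The WT mice were littermates with the LoxP sites and without CreERT2, so the effect of deleting Prmt1 and that of carrying active CreERT2 cannot be told apart. All mice of both genotypes received 2 mg tamoxifen per injection for up to 5 consecutive days, and crypts were collected 2, 7 or 14 days after the first injection. Day 2 crypts were taken before the injection of that day, so these mice had received fewer injections than those of days 7 and 14. Time and number of injections therefore cannot be told apart between day 2 and the later days. There were 3 KO and 3 WT mice per day, which gave 6 groups and 18 libraries. The strain background and the sex of each mouse were not in the labels and were not in the model.

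The libraries held 12844642 to 31493484 counts, with a median of 21266804.5. Expression is given as CPM, counts scaled for library size with edgeR's TMM factors, and a gene was called where the adjusted p of edgeR's quasi-likelihood test over all 21349 genes was under 0.05. Prmt1 was lower in KO than in WT crypts on all 3 days, with a log2FC, the log2 of the ratio KO to WT, of -0.89 (SE 0.14, adjusted p = 0.0264) at day 2, -0.59 (SE 0.14, adjusted p = 0.00675) at day 7, with -0.72 (SE 0.14, adjusted p = 0.00329) at day 14. The summed level of 6 epithelial markers was 4562 to 8718 CPM in every library. In KO day 7 crypts the 5 Paneth cell markers and 4 of 6 stem cell markers fell, and in KO crypts of days 7 and 14 all 7 enteroendocrine markers rose. Of 7 enterocyte markers, 2 rose at day 7 and 1 at day 14. Over all genes, 17.3% were called at day 7 and 7.92% at day 14. In bulk crypt RNA, fewer cells of a type and less RNA per cell cannot be told apart.

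In Notch signaling, a ligand on one cell activates the receptor on its neighbor, the receptor is cut, and its intracellular domain enters the nucleus and joins Rbpj to switch on targets such as Hes1. Hes1 represses Atoh1, the transcription factor that starts secretory differentiation, so crypt cells with active Notch become absorptive while cells that escape it express Atoh1 and ligands and become Paneth, goblet or enteroendocrine cells. Nrarp is both a target and a feedback inhibitor, whose protein binds the complex of the Notch intracellular domain and Rbpj.

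Of the 10 genes, 9, all but Hes1, were matched to the table of promoter windows used here (from RefSeq, GRCm38.p6), in which a window runs from 250 bases before to 50 bases after a start site, and 12 windows were found in all because some genes have several. The 250 bases before the start of Nrarp and of Atoh1 are shown because these are the members called in the comparisons of KO with WT crypts described below. They lie at chr2:25180508-25180757 and chr6:64728875-64729124, both on the plus strand, and are written 5′ to 3′. Capitals mark the N-box CACNAG, a sequence that Hes proteins can bind, on either strand.
Nrarp: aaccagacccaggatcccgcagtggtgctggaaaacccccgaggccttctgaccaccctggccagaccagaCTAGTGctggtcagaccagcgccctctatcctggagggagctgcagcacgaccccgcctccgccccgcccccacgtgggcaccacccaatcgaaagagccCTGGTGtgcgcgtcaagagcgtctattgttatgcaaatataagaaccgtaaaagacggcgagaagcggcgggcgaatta
Atoh1: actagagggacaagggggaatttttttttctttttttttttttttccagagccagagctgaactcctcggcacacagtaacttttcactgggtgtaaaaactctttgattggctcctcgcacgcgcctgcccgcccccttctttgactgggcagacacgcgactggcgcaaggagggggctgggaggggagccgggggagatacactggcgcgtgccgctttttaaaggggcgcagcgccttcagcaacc
The 250 bases of Nrarp hold 2 N-boxes and those of Atoh1 hold 0, while the full window of Atoh1 holds 1, after the start site. Over the full windows of 300 bases an N-box was present in 7 of the 12 member windows, against 42.5% of all 32851 promoter windows of this length in the RefSeq table. The core sequence TGGGAA, which Rbpj can bind, was found in 2 of the 12, both of Rbpj itself, against 25.6% of all windows. The E-box CANNTG, which Atoh1 and other basic helix-loop-helix factors can bind, was present in 7 of the 12, and 72.3% of all windows held it. Its form CACGTG was present in 1 of the 12, that of Nrarp, and in 7.15% of all windows. E-boxes of this form are counted in both E-box shares, and both strands were searched. A match is a run of letters and not a measured binding site.

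Levels between genes were compared per exon length, as RPKM, over the 9 WT libraries. Hes6, an antagonist of Hes1, had the highest level at 14.0 ± 0.662 RPKM (SD, n = 9), followed by Dll1 at 12.9 ± 1.59 RPKM, Hes1 at 12.4 ± 1.63 RPKM and Atoh1 at 9.47 ± 1.75 RPKM. Nrarp reached 7.74 ± 1.44 RPKM, Notch2 6.74 ± 0.759 RPKM and Notch1 5.17 ± 1.01 RPKM. The lowest were Dll4 at 4.62 ± 0.481 RPKM, Jag1 at 4.50 ± 0.861 RPKM and Rbpj at 1.95 ± 0.150 RPKM. The ranges of neighbors in this order overlapped for every pair except Jag1 and Rbpj. Within libraries, Notch2 lay above Notch1 in each of the 9, while the other overlapping neighbors kept their order in 5 to 7 of the 9. The differences between neighbors were not tested. The union of the annotated Rbpj exons is 12750 bases long, which lowers its value per length if few of them are used. In the 9 KO libraries Nrarp had the widest relative spread of the 10, from 2.88 to 11.7 RPKM.

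**Figure D1:**
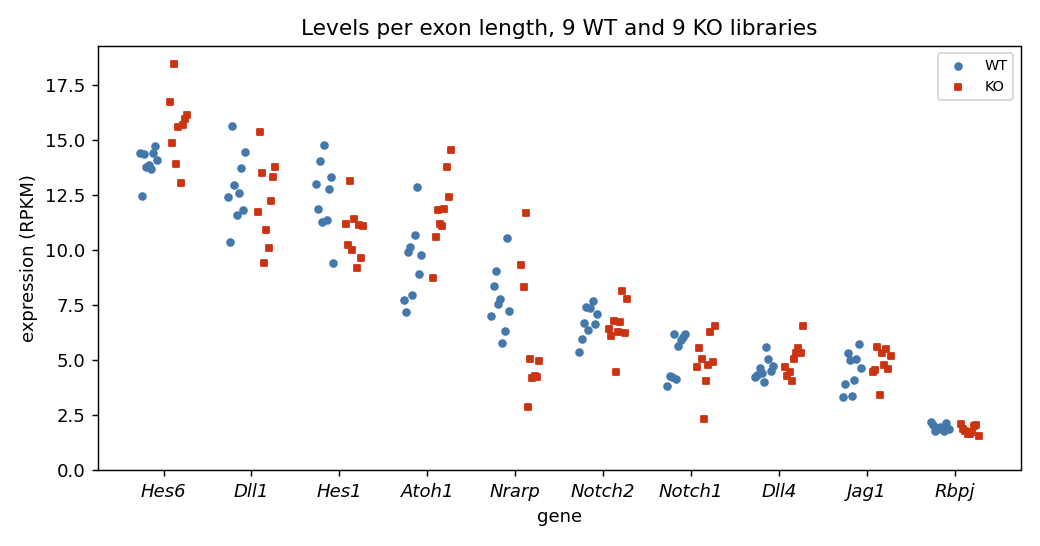
Expression of the 10 genes in RPKM (vertical axis, linear) for the 9 WT libraries (blue circles) and the 9 KO libraries (red squares), each point 1 library of any day. Genes run from the highest WT mean, Hes6 at 14.0 RPKM, to the lowest, Rbpj at 1.95 RPKM, and the KO points of Nrarp spread from 2.88 to 11.7 RPKM.

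On single days, 1 of the 10 genes was called between KO and WT crypts. Nrarp fell at days 7 and 14, and no member was called at day 2. Among all tested genes 0.0328% were called at day 2, 17.3% at day 7 and 7.92% at day 14, so 1 of 10 members, or 10%, was below the background at day 7 and close to it at day 14. The median log2FC of the 10 was 0.16 at day 2, -0.23 at day 7 and -0.02 at day 14, beside -0.0048, 0.016 and 0.0022 over all tested genes. The libraries of KO and WT did not overlap for 2 members at day 2, 4 at day 7 and 3 at day 14, where the shares over all tested genes were 8.16%, 33.6% and 26.5%.

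**Figure D2:**
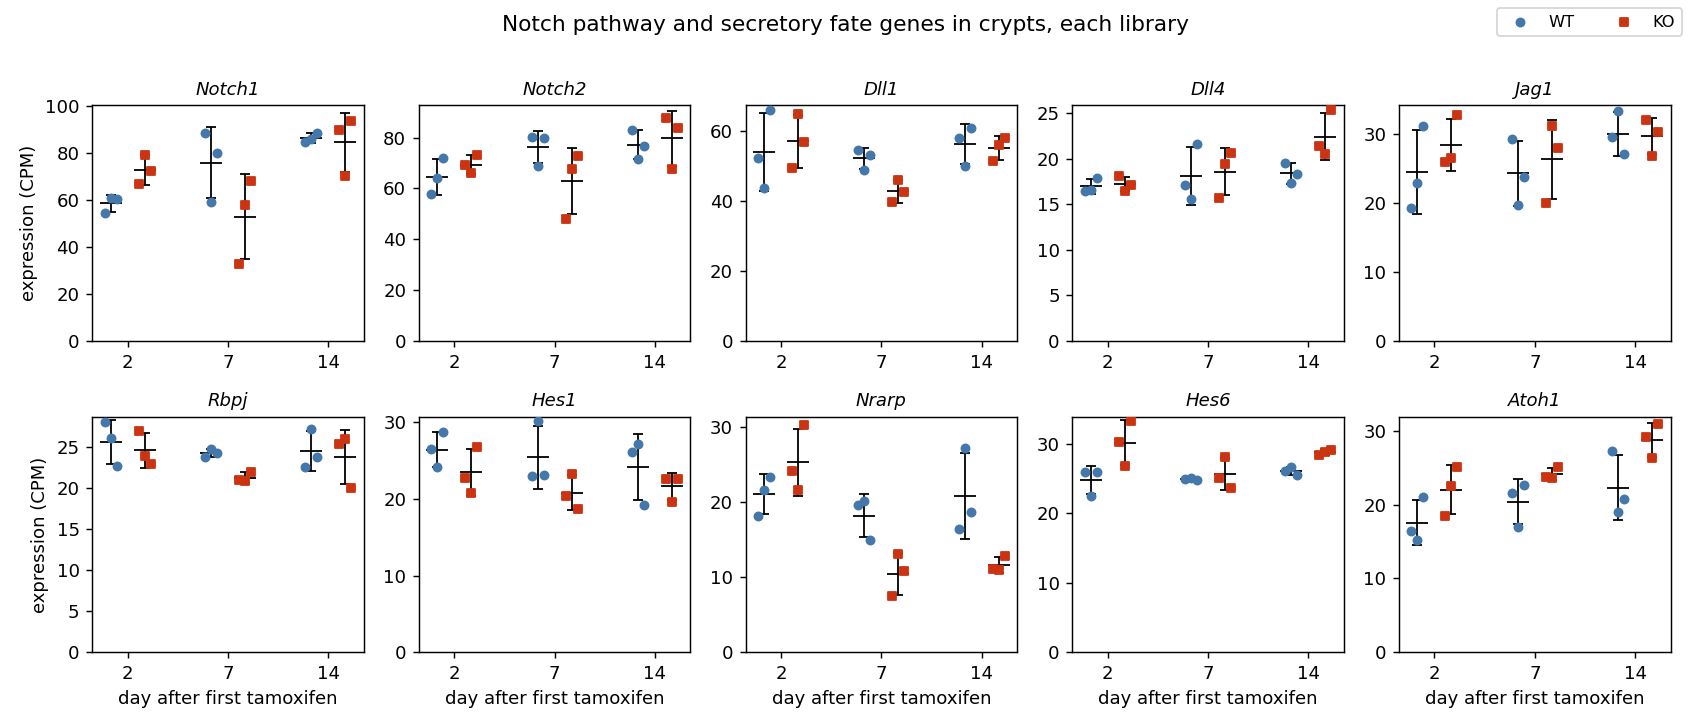
Expression of each of the 10 genes in CPM (vertical axes, linear, from 0) at days 2, 7 and 14 after the first tamoxifen injection, with WT libraries as blue circles and KO libraries as red squares; black bars give the mean and SD of 3 libraries. KO and WT of Nrarp separate at days 7 and 14, with all KO points at 7.43 to 13.02 CPM and all WT points at 14.9 CPM or more.

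Nrarp (ENSMUSG00000078202.3, chr2:25180758-25183339, plus strand, mm10) carries the only change called on single days. At day 2 its level was 24.1, 21.5 and 30.2 CPM for KO and 18.1, 21.6 and 23.4 CPM for WT crypts. At day 7 the 3 KO libraries had 7.43, 13.02 and 10.8 CPM and the 3 WT libraries 19.5, 20.1 and 14.9 CPM. At day 14 the values were 11.1, 10.98 and 12.8 CPM for KO and 16.4, 27.2 and 18.7 CPM for WT. The genotypes overlapped at day 2, and every KO library lay under every WT library at days 7 and 14. The log2FC was 0.27 at day 2 (SE 0.20, adjusted p = 0.999), -0.80 at day 7 (SE 0.21, adjusted p = 0.0117), with -0.84 at day 14 (SE 0.21, adjusted p = 0.0158). KO crypts thus held 0.58 of the WT level at day 7, with a 95% interval of the log2FC from -1.23 to -0.36, and 0.56 of it at day 14, with an interval from -1.28 to -0.41. The KO effect at day 7 differed from that at day 2 by -1.06 on the log2 scale (SE 0.29, adjusted p = 0.0423), in a comparison where 4.37% of all genes were called. The effects at days 14 and 7 differed by -0.05 (SE 0.29, adjusted p = 0.999), and here 0% of all genes were called by edgeR's test, with 953 at an unadjusted p under 0.05.

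The calls depended on single libraries. Without KO day 7 replicate 1 the day 7 log2FC of Nrarp was -0.58 with an adjusted p of 0.0932. At day 14 the adjusted p was 0.0701 without KO replicate 1, 0.0698 without KO replicate 2 and 0.106 without WT replicate 2, with log2FC of -0.80, -0.79 and -0.60. The difference between days 7 and 2 stayed called in 3 of the 12 fits that each left out 1 library, with values from -1.26 to -0.86.

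Almost the whole of Nrarp lies opposite Gm38287 (ENSMUSG00000103217.1, chr2:25180781-25183339, minus strand), and 79.4% of the Nrarp exon bases are also exon bases of Gm38287. The counting did not use strand and counted a fragment for every gene it overlapped, so reads of the 2 genes cannot be told apart. Gm38287 held 5669 counts over the 18 libraries beside 6862 for Nrarp. Its log2FC were 0.27 at day 2 (SE 0.19, adjusted p = 0.999), -0.83 at day 7 (SE 0.20, adjusted p = 0.00703), with -0.90 at day 14 (SE 0.20, adjusted p = 0.00775). The call was lost without KO replicate 1 at day 7 (adjusted p = 0.0603) and without WT replicate 2 at day 14 (adjusted p = 0.0590), where the log2FC was -0.63 and -0.65. Each value of the pair therefore describes the locus rather than 1 of its strands.

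**Figure D3:**
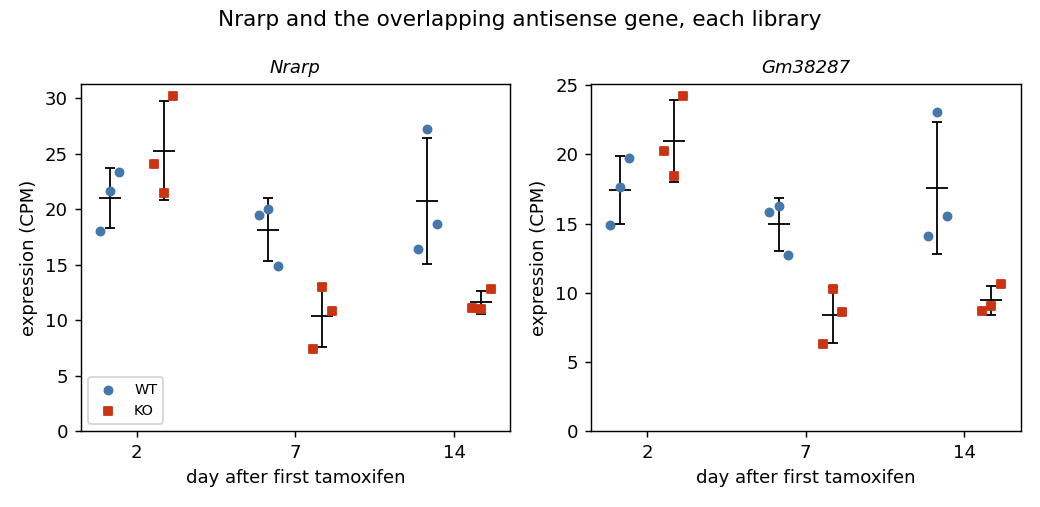
Expression of Nrarp (left) and of the overlapping antisense gene Gm38287 (right) in CPM (linear, from 0) in each library at days 2, 7 and 14, with WT as blue circles, KO as red squares and the mean and SD of 3 libraries in black. Both genes are lower in KO at days 7 and 14, with log2FC of -0.80 and -0.84 for Nrarp and of -0.83 and -0.90 for Gm38287.

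Marker sums of several crypt cell types differed between KO and WT on the days when Nrarp was lower. The summed level of the 6 stem cell markers was 459 to 1085 CPM for KO and 1702 to 2312 CPM for WT crypts at day 7, and 1571 to 1859 CPM for KO and 2116 to 2324 CPM for WT at day 14. That of the 5 Paneth cell markers was 1382 to 3890 CPM for KO and 8758 to 14633 CPM for WT at day 7, and 5383 to 7119 CPM for KO and 9022 to 19971 CPM for WT at day 14. The sum of the 7 enterocyte markers lay the other way at day 7, at 11492 to 19007 CPM for KO and 6398 to 9559 CPM for WT, and at day 14 it was 9398 to 18579 CPM for KO and 3372 to 9510 CPM for WT, where the groups overlapped. All 7 had a positive log2FC on both days, with medians of 0.95 and 1.15. The sums of the 6 tuft cell markers at day 7 (28.9 to 63.1 CPM for KO and 69.6 to 78.8 CPM for WT), of the 6 goblet cell markers at day 14 (10557 to 12505 CPM and 12734 to 13067 CPM) and of the 6 proliferation markers at day 14 (772 to 913 CPM and 968 to 1181 CPM) were also lower in KO without overlap. KO day 7 replicate 1 had the lowest sum of the stem and Paneth cell lists and the lowest Nrarp level of the 18 libraries. The part of these cells in the Nrarp values was not tested.

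Hes1 (ENSMUSG00000022528.8, chr16:30064384-30067796, plus strand), the repressor that holds Atoh1 down, was not called on any day. Its levels were 22.8, 20.8 and 26.8 CPM for KO and 26.5, 24.2 and 28.7 CPM for WT at day 2, and 20.4, 23.2 and 18.7 CPM for KO and 22.95, 30.2 and 23.2 CPM for WT at day 7. At day 14 the KO libraries had 22.7, 19.6 and 22.6 CPM and the WT libraries 26.1, 27.1 and 19.2 CPM. KO and WT overlapped on every day, and the log2FC were -0.17, -0.29 and -0.16 at days 2, 7 and 14 (SE 0.15 each, adjusted p = 0.999, 0.213 and 0.615). The 95% interval at day 7, from -0.60 to 0.03, holds both a fall to 0.66 of the WT level and no change.

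Atoh1 (ENSMUSG00000073043.5, chr6:64729125-64731245, plus strand) was not called on any single day. At day 2 its level was 18.5, 22.5 and 25.1 CPM for KO and 16.4, 15.3 and 21.1 CPM for WT crypts. The day 7 values were 23.7, 23.6 and 25.2 CPM for KO and 21.6, 16.9 and 22.7 CPM for WT, and those of day 14 were 29.2, 26.3 and 30.9 CPM for KO and 27.3, 18.95 and 20.8 CPM for WT. KO lay above WT without overlap at day 7, and at days 2 and 14 the groups overlapped through 1 WT library above the lowest KO library. The log2FC were 0.33 at day 2 (SE 0.16, adjusted p = 0.999), 0.24 at day 7 (SE 0.16, adjusted p = 0.335), with 0.37 at day 14 (SE 0.16, adjusted p = 0.173). Averaged over the 3 days, a contrast that was chosen after the data were seen, the difference was 0.31 (SE 0.09, adjusted p = 0.0211), 1.24-fold, in a contrast that called 19.8% of all genes. Nrarp was the other member called in it, at -0.46 (SE 0.12, adjusted p = 0.0101), and Hes1 had -0.20 (SE 0.09, adjusted p = 0.109). Both calls remained in each of the 18 fits that left out 1 library, with adjusted p up to 0.0494 for Atoh1 and up to 0.0264 for Nrarp.

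Hes6 (ENSMUSG00000067071.8, chr1:91411483-91414038, minus strand) was higher in all KO than in all WT libraries at days 2 and 14, without passing the test. It had 30.3, 26.9 and 33.3 CPM for KO and 26.04, 22.6 and 25.96 CPM for WT at day 2, a log2FC of 0.28 (SE 0.11, adjusted p = 0.999). Its day 14 values were 28.4, 28.8 and 29.2 CPM for KO against 26.1, 26.7 and 25.5 CPM for WT, a log2FC of 0.14 (SE 0.11, adjusted p = 0.492). The 6 libraries of day 7 ranged from 23.6 to 28.2 CPM and overlapped, at a log2FC of 0.04 (SE 0.11, adjusted p = 0.841). The mean over the 3 days was 0.16 (SE 0.06, adjusted p = 0.0890), and it passed the threshold among genes with a mean count of at least 50 (adjusted p = 0.0485), without KO day 2 replicate 2 (adjusted p = 0.0459) and without KO day 7 replicate 3 (adjusted p = 0.0406).

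The receptor Notch1 (ENSMUSG00000026923.15, chr2:26457903-26516663, minus strand) had, after Nrarp, the smallest adjusted p of the members on any day. At day 7 it had 32.9, 57.7 and 68.1 CPM for KO and 88.4, 59.2 and 80.1 CPM for WT crypts, a log2FC of -0.52 (SE 0.20, adjusted p = 0.0735). The groups overlapped, and KO day 7 replicate 1 held the lowest value of the 18 libraries. Without that library the log2FC was -0.25 with an adjusted p of 0.379, while without KO replicate 3 it was -0.72 (adjusted p = 0.0159) and in the absence of WT replicate 2 it was -0.67 (adjusted p = 0.0381). At day 2 the difference had the other sign, with 66.7, 79.2 and 72.3 CPM in all KO libraries above 54.5, 60.8 and 60.4 CPM for WT, and a log2FC of 0.31 (SE 0.20, adjusted p = 0.999). The day 14 log2FC was -0.03 (SE 0.19, adjusted p = 0.952). Day 7 minus day 2, the KO effect was -0.84 (SE 0.28, adjusted p = 0.0961), and it missed the threshold. Exons of the antisense genes 0610009E02Rik and Gm13568 cover 7.50% and 2.91% of the Notch1 exon bases.

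Notch2 (ENSMUSG00000027878.11, chr3:98013527-98150361, plus strand), the other receptor, had log2FC of 0.10 (SE 0.15), -0.28 (SE 0.15) and 0.05 (SE 0.15) at days 2, 7 and 14, with adjusted p = 0.999, 0.210 and 0.897. At day 7 its KO libraries had 48.0, 67.8 and 72.7 CPM and its WT libraries 80.1, 68.8 and 79.7 CPM. KO replicate 1 was again the lowest of the 18 libraries, and without it the log2FC was -0.10. The groups overlapped on all 3 days, and exons of Gm42820, on the same strand, cover 5.02% of the Notch2 exon bases.

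The ligands Dll1, Dll4 and Jag1, which secretory cells present to their neighbors, were not called on any day. Dll1 (ENSMUSG00000014773.13, chr17:15367354-15376872, minus strand) had 39.8, 46.2 and 42.7 CPM in KO day 7 crypts, all below the 54.7, 49.0 and 53.2 CPM of WT, and its log2FC was -0.29 (SE 0.14, adjusted p = 0.175). Its log2FC at days 2 and 14 were 0.08 and -0.03 (SE 0.14 each), with overlapping groups. Dll4 (ENSMUSG00000027314.6, chr2:119325784-119335962, plus strand) showed its separation at day 14, with 21.4, 20.5 and 25.3 CPM in KO above 19.6, 17.3 and 18.3 CPM for WT and a log2FC of 0.29 (SE 0.14, adjusted p = 0.238). At days 2 and 7 its log2FC were 0.02 and 0.04 (SE 0.14 each), and the antisense gene Gm14207 covers 5.56% of its exon bases. Jag1 (ENSMUSG00000027276.7, chr2:137081456-137116644, minus strand) ranged from 19.3 to 33.3 CPM over the 18 libraries, overlapped between KO and WT on all days and had log2FC of 0.22, 0.11 and -0.01 (SE 0.19 each).

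Rbpj (ENSMUSG00000039191.12, chr5:53466152-53657362, plus strand), the DNA-binding partner of all Notch receptors, ranged from 20.03 to 28.1 CPM over the 18 libraries. At day 7 its KO libraries had 21.03, 20.8 and 22.1 CPM and its WT libraries 23.8, 24.8 and 24.4 CPM, which did not overlap. The log2FC there was -0.19 (SE 0.12, adjusted p = 0.325), with a 95% interval from -0.45 to 0.07. It was -0.06 at day 2 and -0.04 at day 14 (SE 0.12 each).

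**Figure D4:**
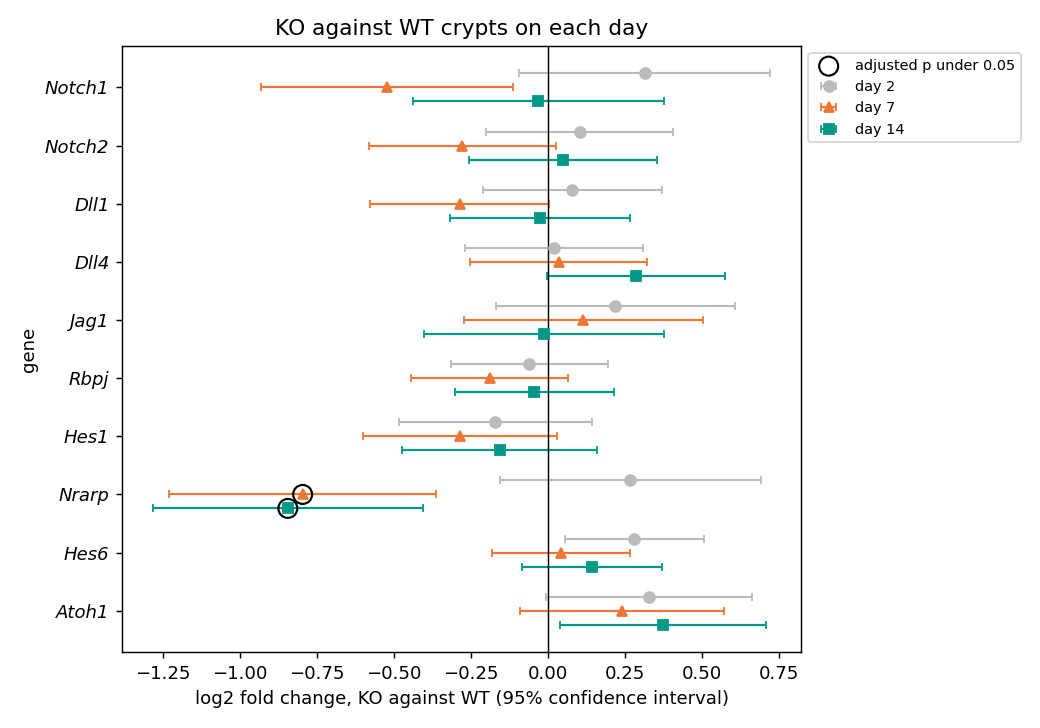
Log2FC of KO against WT crypts (horizontal axis) with its 95% confidence interval for the 10 genes at day 2 (grey circles), day 7 (orange triangles) and day 14 (green squares). Black rings mark an adjusted p under 0.05, which only Nrarp has, at -0.80 on day 7 and -0.84 on day 14.

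In WT crypts no member was called between any 2 days. The backgrounds of these comparisons were 0.553% of all genes for day 7 against day 2, 1.61% for day 14 against day 2 and 0.0796% for day 14 against day 7. Unadjusted p values under 0.05 were reached by 0, 2 and 0 members. The 2 were Notch1, with 54.5 to 60.8 CPM for WT at day 2 and 84.5 to 88.4 CPM at day 14 and a log2FC of 0.56 (SE 0.20, adjusted p = 0.122), and Atoh1, with a log2FC of 0.34 (SE 0.16, adjusted p = 0.245). The WT libraries of days 2 and 14 did not overlap for Notch1 and overlapped for Atoh1.

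Across the 18 libraries the members were compared in pairs by the deviations of their log2 CPM from the group mean. Of 45 pairs, 30 had a positive and 15 a negative Pearson r, from -0.70 to 0.85. An exact two-sided permutation test within groups (46656 orders) with Benjamini-Hochberg adjustment over the 45 pairs gave 5 pairs an adjusted p of 0.0438. Hes1 and Hes6 had r = 0.64 (exact p = 0.00103) and Spearman rho = 0.71 (exact p = 0.00409, adjusted p = 0.0562). Rbpj and Atoh1 had r = -0.70 (exact p = 0.00487) and rho = -0.70 (exact p = 0.00763, adjusted p = 0.0687). Notch2 had r = 0.54 with Atoh1 (exact p = 0.00420), 0.74 with Dll4 (exact p = 0.00422) and 0.76 with Jag1 (exact p = 0.00446), and rho of 0.62, 0.72 and 0.76 (adjusted p = 0.0562 each by exact permutation). Without the 2 libraries farthest from the median of the first gene, r was 0.76 for Hes1 and Hes6, -0.72 for Rbpj and Atoh1, and 0.65, 0.62 and 0.69 for Notch2 with Atoh1, Dll4 and Jag1. No pair was called in 12 of the 18 sets that each left out 1 library, and none by Spearman's rho. In these sets r stayed at 0.57 to 0.72 for Hes1 and Hes6, -0.78 to -0.62 for Rbpj and Atoh1, 0.65 to 0.84 for Notch2 and Jag1, 0.60 to 0.84 for Notch2 and Dll4, and 0.47 to 0.72 for Notch2 and Atoh1. When the group means were not removed, r for Hes1 and Hes6 was 0.09.

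The genes whose log2 CPM followed a member most closely over the 18 libraries were ranked by Pearson r among 14244 genes with a mean count of at least 50, as a description without a test. For Atoh1 they were Spdef, a transcription factor of goblet and Paneth cells (r = 0.89), Brd2 (r = 0.87) and Smox (r = 0.87). Hes1 was followed by Drg1 (r = 0.86), Rps3 (r = 0.84) and Gm1123 (r = 0.84). The list for Dll1 was Retreg2, Sash1 and Mtmr3, with r = 0.86, 0.85 and 0.84, and that for Dll4 was Tmem39a, Gm44123 and Gm48604, with r = 0.87, 0.84 and 0.81. These values share the libraries, the genotypes and the days.

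The wider Notch pathway was followed with a list of 48 other genes, of which 42 were tested. At day 7, 6 of the 42 were called, 1 higher and 5 lower in KO, or 14.3% beside 17.3% of all genes. At day 14 it was 7 of 42, 2 higher and 5 lower, or 16.7% beside 7.92%, and at day 2 it was 0, with 2 at an unadjusted p under 0.05. The median log2FC of the list was -0.06 at day 7 and -0.04 at day 14. Without KO day 14 replicate 1 or replicate 3, 4 of the 42 were called at day 14.

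Those that were lower in KO at both days act at different steps of the pathway. Pofut1, the fucosyltransferase that glycosylates Notch receptors, had 35.7, 39.0 and 37.1 CPM for KO and 68.4, 70.2 and 72.3 CPM for WT at day 7, a log2FC of -0.92 (SE 0.10, adjusted p = 4.66e-06), with -0.68 at day 14 (SE 0.10, adjusted p = 0.000257). Neurl1b, an E3 ubiquitin ligase of Notch ligands, had 11.9, 12.1 and 13.7 CPM for KO and 34.95, 34.4 and 36.1 CPM for WT at day 7, with log2FC of -1.48 (SE 0.17, adjusted p = 1.29e-05) and, a week later, -1.30 (SE 0.17, adjusted p = 0.000121). Dtx4, a ligase of the Deltex family that regulates Notch receptors, had 11.6, 15.1 and 14.2 CPM for KO and 32.5, 39.65 and 37.4 CPM for WT at day 7. Its log2FC were -1.42 (SE 0.14, adjusted p = 1.42e-06) and -0.87 (SE 0.14, adjusted p = 0.000452). Maml3, a Mastermind coactivator that joins the complex of Rbpj and the Notch intracellular domain, had 8.61, 9.59 and 9.98 CPM for KO and 19.95, 22.5 and 23.7 CPM for WT at day 7, with a log2FC of -1.23 (SE 0.15, adjusted p = 2.48e-05). Its day 14 values were 14.2, 15.1 and 14.5 CPM for KO against 22.8, 22.1 and 22.95 CPM for WT, with a log2FC of -0.63 (SE 0.15, adjusted p = 0.0142), and these KO values lay within the 13.2 to 16.7 CPM of WT at day 2. In all 4 genes KO and WT did not overlap on either day, and the KO effect at day 7 was below that at day 2, by -0.79 for Pofut1, -1.38 for Neurl1b, -1.33 for Dtx4 and -1.36 for Maml3 on the log2 scale (adjusted p = 0.00294, 0.00281, 0.000503 and 0.00134).

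Dlk2, a Delta-like gene, was also called lower on both days but rested on few counts. At day 7 the KO libraries held 0, 1 and 2 counts and the WT libraries 26, 6 and 17 counts, a ratio of 0.055 with an exact 95% counting interval from 0.011 to 0.17. At day 14 there were 7 counts in KO and 60 in WT over the 3 libraries, a ratio of 0.141 (0.0545 to 0.310). The intervals cover counting error only. Dlk2 passed the filter on low counts through the WT libraries of days 7 and 14, at 0.383 to 1.34 CPM, while all other libraries were at 0.399 CPM or less, so its 2 calls give no support to the counts above.

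Genes of the list that rose were a receptor and ligands. Dner, an atypical Notch ligand known from neurons, had 1.59 ± 0.283 CPM for KO and 0.585 ± 0.0718 CPM for WT at day 7 (SD, n = 3 each), a log2FC of 1.44 (SE 0.35, adjusted p = 0.00741). The summed level of 5 nerve and glia markers was 2.14 to 3.01 CPM for KO and 2.14 to 2.48 CPM for WT on that day, and of the 4 tested, 3 were higher and 1 lower, with 1 called in each direction. Their part in the Dner values was not tested. At day 14 Notch4 had 13.7 ± 2.32 CPM for KO and 8.79 ± 1.67 CPM for WT, a log2FC of 0.65 (SE 0.19, adjusted p = 0.0377), and Jag2 had 7.08 ± 0.0780 CPM for KO and 4.11 ± 0.793 CPM for WT, a log2FC of 0.77 (SE 0.20, adjusted p = 0.0191). Notch4 is known from endothelium, and of 10 endothelial markers Cdh5, Tie1, Emcn and Cldn5 were too low to be tested, with at most 0.520 CPM in any library, while the summed level of the 10 was 16.3 to 19.1 CPM for KO and 12.9 to 15.3 CPM for WT at day 14. Of the 6 endothelial markers tested, 3 were higher and 3 lower in KO at day 14, with 1 called in each direction. The part of endothelial RNA in the Notch4 values was not tested. None of the 9 tested genes of receptor cleavage, which include the γ-secretase subunits, was called on any single day, with 1 at an unadjusted p under 0.05 at day 7 and 2 at day 14, and 1 was called higher in the mean of the 3 days. In that mean 9 of the 42 genes of the list were called, 4 higher and 5 lower, or 21.4% beside 19.8% of all genes. The Hes and Hey targets Hes5, Hes7, Hey1 and Hey2 were too low to be tested, with at most 16 counts for Hes5 in a library, and Heyl had log2FC of -0.53 (adjusted p = 0.305) at day 7 and 0.42 (adjusted p = 0.545) at day 14.

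A list of 20 transcription factors and regulators of secretory fate was tested in full. At day 7, 10 were called, 5 higher and 5 lower in KO, or 50% beside 17.3% of all genes. At day 14, 4 were called and all were higher, or 20% beside 7.92%. With the replicate number as a block in a model of the day 14 libraries alone, 7 were called. The study itself reports on several of these endocrine factors in the same samples, so the list is not independent evidence of its direction.

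The called factors that were higher belong mostly to the enteroendocrine branch. Neurog3, which starts endocrine differentiation below Atoh1, had 6.10 ± 0.973 CPM for KO and 2.99 ± 0.258 CPM for WT at day 7 (SD, n = 3 each), and its log2FC were 1.04 (SE 0.23, adjusted p = 0.00356) and 1.17 (SE 0.23, adjusted p = 0.00280) at days 7 and 14. Insm1 rose by 1.04 (SE 0.22) and 1.36 (SE 0.22), Neurod1 by 1.203 (SE 0.21) and 1.29 (SE 0.21), and Pax4 by 0.85 (SE 0.27) and 1.85 (SE 0.27) on the log2 scale. Creb3l1 rose at day 7 by 0.63 (SE 0.17, adjusted p = 0.0150). The factors Sox9 and Sox4, found in stem and progenitor cells, fell at day 7 by 0.73 (SE 0.16, adjusted p = 0.00367) and 0.83 (SE 0.17, adjusted p = 0.00254), and Foxa2 and Bhlha15, the latter a factor of secretory cell maturation, by 0.79 (SE 0.24, adjusted p = 0.0272) and 1.35 (SE 0.30, adjusted p = 0.00546). At day 14 Sox9 had a log2FC of -0.19 (SE 0.16, adjusted p = 0.557). Sox4 then had 26.7, 20.5 and 25.6 CPM for KO, all below the 35.8, 35.3 and 31.95 CPM of WT, and was not called. Foxa2 and Bhlha15 were not called at day 14 either, and their groups overlapped. Gfi1, a repressor below Atoh1 that favors Paneth and goblet over endocrine fate, had -0.03 (SE 0.23, adjusted p = 0.950) and 0.08 (SE 0.24, adjusted p = 0.891). Spdef had 0.41 (SE 0.17, adjusted p = 0.109) and 0.47 (SE 0.17, adjusted p = 0.101). Beside these values, the summed level of the 7 enteroendocrine markers was 652 to 811 CPM for KO and 295 to 315 CPM for WT at day 7, and 771 to 925 CPM for KO and 252 to 329 CPM for WT at day 14.

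**Figure D5:**
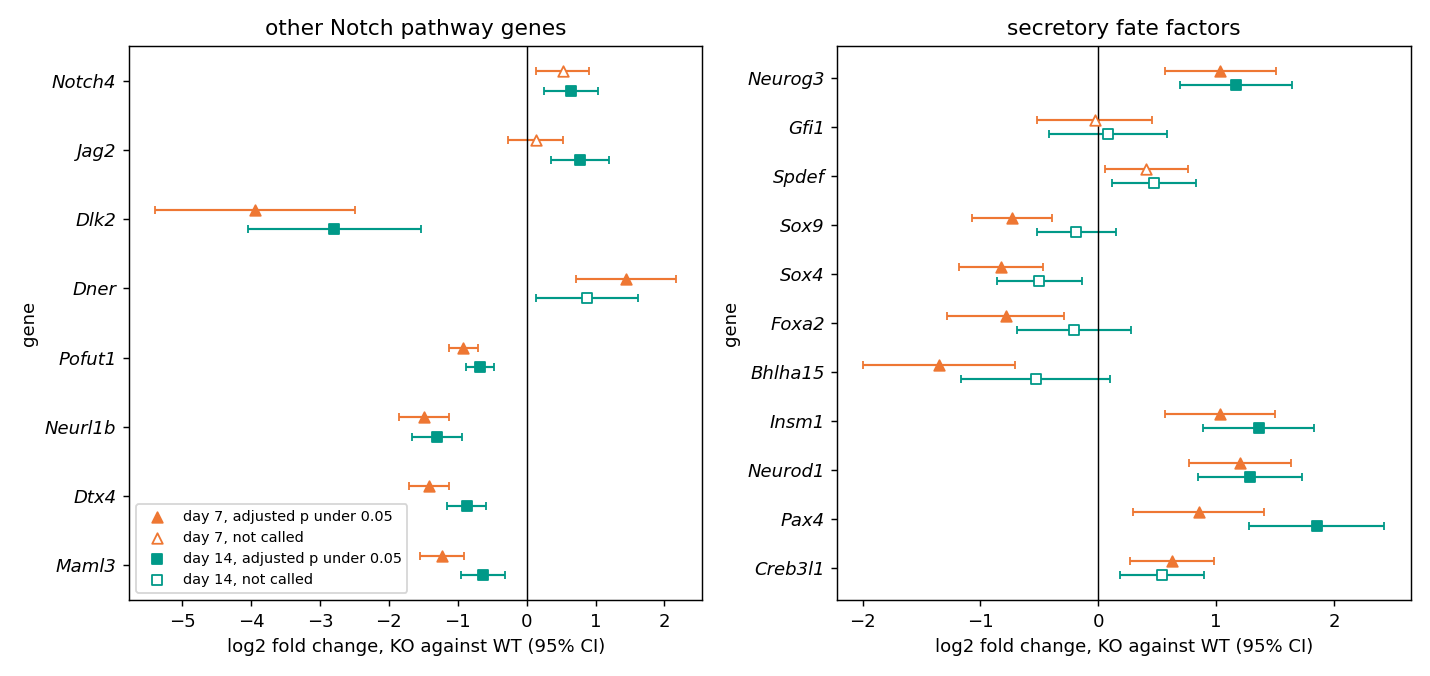
Log2FC of KO against WT crypts (horizontal axes) with 95% confidence intervals at day 7 (orange triangles) and day 14 (green squares) for other Notch pathway genes (left) and secretory fate factors (right); filled symbols have an adjusted p under 0.05 and open ones do not. Pofut1, Neurl1b, Dtx4 and Maml3 lie below 0 on both days, while Neurog3, Insm1, Neurod1 and Pax4 lie above 0 on both.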

How the data were processed

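The authors aligned the reads of ribosomal RNA-depleted libraries with STAR 2.7.3 to mm10, counted them per gene with featureCounts 1.6.4 and deposited these counts as whole numbers without normalization. The header of the table names GENCODE release 23 for mouse, while a later one stands in the methods. The counting ignored strand and gave a read to each gene it overlapped, and 0 columns and 0 rows without a gene were left unused. Members and gene lists were chosen with earlier results of these data known.

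The 20 genes with a sex difference that the study removed were left out. Genes were filtered with filterByExpr of edgeR 4.0.16, counts were scaled with TMM, and all 18 libraries were fitted with 1 mean per group by the robust quasi-likelihood method (limma 3.58.1, R 4.3.3), adjusting by Benjamini-Hochberg at a threshold of 0.05. Each p-value of this fit rests on the spread between mice within groups, estimated over all 6 groups together. The 3 mice a group limit its precision. CPM and RPKM use the TMM factors and the deposited exon lengths, and log2 CPM has a prior count of 2. Correlations were tested by exact permutation within groups (Python 3.11.15, numpy 2.4.6, pandas 2.3.3, scipy 1.17.1), and plots were drawn with matplotlib 3.10.9. The edgeR fit of KO against WT at day 7 was also run on simulated counts with known changes. No libraries were duplicates, as at most 2.94% of genes had equal counts in a pair of one group, and the pairs differed by a chi-square of at least 17.9 per degree of freedom.

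Alternatives were DESeq2 1.42.0's Wald test and size factors, the 20 most abundant genes left out, no filter, a mean count of at least 50, the sex genes kept, a model of the compared groups alone, a block for replicate number and the omission of each library. The deviations of same-numbered KO and WT pairs correlated at r = 0.227, 0.18 and 0.159 at day 14. The values were 0.0478, 0.158 and 0.381 at day 2 and -0.159, 0.206 and 0.0787 at day 7. Only at day 14 were all 3 above 0.1, and a model of that day alone with a block was added. All 3 were also positive at day 2, so these values do not establish a pairing at day 14 alone, and the labels name none. The text names all members, the genes of the wider Notch and secretory lists called at day 7 or 14 (at most 8 per list and day, by smallest adjusted p), Neurog3, Gfi1, Spdef, Sox9 and Hes5, and the 3 genes most like Atoh1, Hes1, Dll1 and Dll4. Genes named with the marker lists were added. One result between WT days is not reported here, and the counts of KO against WT include every tested gene.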

Additional observations from a re-analysis of the deposited data

Results flagged for a closer look

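The KO effect on Nrarp differed between day 7 and day 2 by -1.06 on the log2 scale in a test of the difference itself (adjusted p = 0.0423, edgeR's quasi-likelihood test). This call was lost in 9 of the 12 fits that each left out 1 library. The number of tamoxifen injections also differed between these days. At day 2, 1 KO library lay within the WT range and 2 above it, and at day 7 all 3 lay below it. The antisense gene Gm38287, whose exons cover 79.4% of the Nrarp exon bases, gave -1.09 (adjusted p = 0.0300), and this call was lost in 7 of the 12 fits that each left out 1 library, with values from -1.27 to -0.91. Reads of the 2 genes cannot be told apart. Groups of 3 libraries were too small for the test for single deviating libraries.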

How the results depend on the processing

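With no filter on low counts, Notch1 was called beside Nrarp at day 7 (adjusted p = 0.0145) and in the difference between days 7 and 2 (adjusted p = 0.0152), which made 2 members in each, and 1 member, Notch1, was called between WT days 14 and 2 (adjusted p = 0.0314). The Nrarp calls at days 7 and 14 held in all 8 and 9 other settings apart from left-out libraries, with adjusted p up to 0.0282 and 0.0300. With 1 library left out, the number of members called ranged from 0 to 2 at day 7, from 0 to 2 at day 14, from 2 to 3 in the mean of the 3 days and from 0 to 1 in the difference between days 7 and 2, the number of other Notch pathway genes called at day 14 from 4 to 7, and the number of related pairs of members from 0 to 5. The second member called at day 14, without WT replicate 1, was Atoh1 (adjusted p = 0.0491). A model of the day 14 libraries alone with the replicate block, chosen after the data were seen, called 7 secretory fate factors in place of 4 and 8 other Notch pathway genes in place of 7. With the replicate block in the model of all libraries, Nrarp had log2 fold changes of -0.83 at day 7 and -0.82 at day 14 (adjusted p = 0.00808 and 0.0168), no call of a member was gained or lost, and 6 other Notch pathway genes at day 14 and 9 secretory fate factors at day 7 were called in place of 7 and 10. No called value changed sign. Values that were not called changed sign in 86 of 1467 refitted values, all with a log2 fold change of at most 0.24 in size. Hes5, Hes7, Hey1 and Hey2 were too low at this depth to be tested. The causes were not tested.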

Other observations

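Among other secretory cells, the goblet cell markers called at days 7 and 14 were lower in KO crypts. Of 6 goblet cell markers, 2 fell at day 7, Fcgbp with a log2FC of -0.82 (SE 0.20, adjusted p = 0.00834 by edgeR) and Clca1 with -0.59 (SE 0.20, adjusted p = 0.0488), while Muc2, the main intestinal mucin, had 0.05 (SE 0.19, adjusted p = 0.897). At day 14 Clca1 alone was called, at -0.73 (SE 0.20, adjusted p = 0.0295). All 5 tested tuft cell markers had a negative log2FC at day 7, with a median of -0.48, and 1 was called, Dclk1, at -1.04 (SE 0.26, adjusted p = 0.0106), and none was called at day 14, where 3 were higher, 2 were lower and 0 had an unadjusted p under 0.05. Over all genes, 17.3% were called at day 7 and 7.92% at day 14.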
